A study of Homo sapiens with 9 samples.

Results

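Promoter interactions were compared between HCT-116 MED14-dTAG cells that received dTAG ligand together with the BET inhibitor I-BET and cells that received dTAG ligand alone, so that the difference between the groups is the addition of I-BET to cells in which MED14 was being degraded. The comparison used all 46349 DpnII fragments between 10 kb and 500 kb from the transcription start sites of 20 genes, out of 11339756 fragment rows in the whole data set, and 6 of its 9 Capture-C libraries. HCT-116 cells are a human colorectal carcinoma line. The MED14-dTAG cells express MED14 from its own gene with a tag, through which the ligand dTAGv-1 recruits it for degradation. The dTAG group (replicates 1 to 3) was treated with 0.5 μM dTAGv-1 for 2 h. The dTAG+I-BET group (replicates 1 to 3) had the same dTAGv-1 treatment combined with 1 μM I-BET for 90 min. The DMSO libraries, from the same line treated with solvent only, are given as levels beside some regions. They were left out of the main fits, entering only an alternative fit of all 9 libraries, and they chose the DMSO-strong bins described last. No library had I-BET without dTAG ligand, and neither MED14 nor BET protein levels were measured in these libraries.

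BET proteins bind acetylated histones through their bromodomains and are concentrated at active enhancers and promoters together with Mediator. Mediator is a large complex that relays signals from transcription factors at enhancers to RNA polymerase II at promoters, and MED14 is its structural backbone. I-BET occupies the bromodomains and releases BET proteins from chromatin. Capture-C ligates DNA fragments that were close in the nucleus and enriches those joined to chosen promoters, called viewpoints, so that the number of ligated fragments measures how often a region met that promoter. The comparison therefore asks whether promoter contacts in MED14-depleted cells still depend on BET proteins.

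The 20 viewpoint genes encode the ligands EREG (an EGF receptor ligand), KITLG (the ligand of KIT) and ANGPT2 (an angiopoietin). They also encode the signalling adaptors and inhibitors IRS1 (an insulin receptor substrate), ERRFI1 and SPRY4 (feedback inhibitors of receptor signalling) and TRIB1 (a pseudokinase), and the nuclear regulators of growth MYC and HMGA2. Epithelial and cell-surface genes were the keratins KRT19 and KRT80, the protocadherin PCDH7 and the membrane protein DCBLD2. The last group held MTAP (methionine salvage), KRR1 (ribosome assembly), DDIT4 (an inhibitor of mTOR signalling), HS3ST1 (a heparan sulfate sulfotransferase), VTI1A (a SNARE protein of vesicle fusion), PHLDA1 and ITPRID2. Values are signal per kb, the authors' normalised interactions summed over a region and divided by its length. Differences are dTAG+I-BET minus dTAG on the log2(signal per kb + 1) scale.

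dTAG replicate 3 stood apart from the other libraries. It had 484419 interactions on the viewpoint chromosomes against 514545 to 835668 in the other 5 libraries, and 39.6% of its interactions were with other chromosomes against 33.6% to 36.3%. Its signal was the lowest of the 6 libraries at 20 of 20 promoters from 10 to 50 kb. The median SD of log2 signal over 10-kb bins was 0.26 among the dTAG libraries, 0.12 among dTAG replicates 1 and 2, and 0.15 among the dTAG+I-BET libraries. Values without dTAG replicate 3 are therefore given beside the main ones. What sets dTAG replicate 3 apart was not tested. Among the DMSO libraries, replicate 3 also had the largest share with other chromosomes (36.7% against 36.5% and 35.2%). It had the lowest mean DMSO signal from 10 to 50 kb as well.

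Beside distances from the promoter, regions were defined by 153 pairs of a viewpoint and a cohesin-lost site (141 sites around 19 of the promoters, none near DDIT4, with 12 sites counted for both KRR1 and PHLDA1). These are sites where the study found less of the cohesin subunit SMC1A by CUT&Tag in dTAG-treated cells, an assay independent of the libraries used here. The sequences below are the central 300 bases of the 4 sites outside genes among the 5 with the lowest p for I-BET. The MTAP and EREG promoters follow, the other ends of the contacts of both MTAP sites and of EREG site 1. All are hg38. The sites are written on the forward strand, and the promoters are the RefSeq windows from 250 bases before to 50 after the gene start (14 of the 20 genes had one). Capitals mark GATC, where DpnII cuts, and TGANTCA, the motif bound by AP-1 factors.
MTAP site 1, chr9:21611950-21612249: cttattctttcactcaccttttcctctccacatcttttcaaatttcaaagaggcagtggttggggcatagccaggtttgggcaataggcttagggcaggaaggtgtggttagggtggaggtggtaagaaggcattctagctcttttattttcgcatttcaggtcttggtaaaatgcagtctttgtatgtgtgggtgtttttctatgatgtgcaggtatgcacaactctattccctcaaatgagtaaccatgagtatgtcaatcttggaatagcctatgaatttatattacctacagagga
MTAP site 2, chr9:21616144-21616443: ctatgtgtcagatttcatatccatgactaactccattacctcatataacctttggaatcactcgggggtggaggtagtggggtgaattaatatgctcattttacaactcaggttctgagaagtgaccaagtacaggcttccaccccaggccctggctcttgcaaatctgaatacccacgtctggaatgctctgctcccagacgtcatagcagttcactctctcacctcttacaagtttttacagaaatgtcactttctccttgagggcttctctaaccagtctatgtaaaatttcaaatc
EREG site 1, chr4:74456179-74456478: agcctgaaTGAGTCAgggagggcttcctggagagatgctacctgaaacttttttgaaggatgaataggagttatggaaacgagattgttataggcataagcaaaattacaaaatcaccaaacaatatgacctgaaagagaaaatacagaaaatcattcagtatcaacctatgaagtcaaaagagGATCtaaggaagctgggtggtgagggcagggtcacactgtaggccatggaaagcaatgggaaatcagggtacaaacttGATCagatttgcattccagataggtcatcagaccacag
ITPRID2 site 1, chr2:181949164-181949463: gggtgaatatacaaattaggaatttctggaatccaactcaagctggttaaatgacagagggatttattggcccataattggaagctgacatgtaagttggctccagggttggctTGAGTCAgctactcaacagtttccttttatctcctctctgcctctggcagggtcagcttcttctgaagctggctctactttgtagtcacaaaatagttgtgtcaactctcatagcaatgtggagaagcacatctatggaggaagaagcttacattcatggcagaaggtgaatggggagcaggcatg
MTAP promoter, chr9:21802386-21802685, forward strand: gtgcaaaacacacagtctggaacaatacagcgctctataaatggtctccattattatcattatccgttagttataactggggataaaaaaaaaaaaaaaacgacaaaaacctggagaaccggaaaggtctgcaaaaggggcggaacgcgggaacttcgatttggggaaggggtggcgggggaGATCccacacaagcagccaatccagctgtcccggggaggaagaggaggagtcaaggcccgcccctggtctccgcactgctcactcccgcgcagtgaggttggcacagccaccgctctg
EREG promoter, chr4:74364895-74365194, forward strand: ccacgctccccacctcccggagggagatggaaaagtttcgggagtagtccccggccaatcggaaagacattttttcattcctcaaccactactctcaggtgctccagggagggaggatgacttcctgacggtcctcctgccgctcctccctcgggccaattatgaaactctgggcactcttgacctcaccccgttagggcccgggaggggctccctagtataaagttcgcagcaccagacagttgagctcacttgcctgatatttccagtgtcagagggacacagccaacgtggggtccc

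An AP-1 match on either strand was present in 71 of the 141 cohesin-lost sites (50.4% of their central 300 bases). The same letters were found in 9.93% of 65320 windows of 300 bases tiled from 10 to 500 kb around the 20 promoters and in 7.71% of 35116 RefSeq promoters. A DpnII site was present in 49.6% of the cohesin-lost sites, 52.6% of the tiled windows and 41.7% of the promoters. A match describes the sequence and does not show that a factor is bound. Neither MTAP site held any of these motifs, and EREG site 1 and ITPRID2 site 1 each held an AP-1 match.

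Adding I-BET to dTAG treatment changed no 10-kb bin around the 20 promoters at an adjusted p under 0.05. limma called 0 of 1960 bins (0%), as did edgeR and DESeq2 on the recovered interaction counts, and limma called 0 without dTAG replicate 3. The lowest adjusted p was 0.339. At an unadjusted p under 0.05 there were 106 bins (5.41%). The 3 libraries of each group did not overlap in 272 bins (13.9%), of which 210 (10.7%) were higher and 62 (3.16%) lower in dTAG+I-BET. The split moved with dTAG replicate 3: 65.7% of bins had a positive difference with all libraries and 48.3% without it, where the median difference was -0.01. The middle 95% of differences ran from -0.43 to 0.48, and the half-width of the 95% interval of a bin had a median of 0.41, with 121 of 1960 intervals reaching beyond 1 on the log2 scale in either direction. A bin held a median of 55 interactions in its lowest library. Changes of single bins smaller than these intervals were not detectable given the spread between the libraries. Larger ones could be missed too, since the intervals are not adjusted for the 1960 bins. The bin with the lowest p differed by -1.36 and was not called (limma adjusted p = 0.339).

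The 5 bins with the lowest p are given as a description. The lowest was 480 to 490 kb upstream of KRT19 (chr17:42008308-42018307), over exons of DNAJC7 and NKIRAS2. Its signal per kb was 125, 99.9 and 129.9 in the dTAG libraries and 61.3, 30.8 and 48.3 in the dTAG+I-BET libraries (difference -1.36 ± 0.30 SE, n = 3, limma adjusted p = 0.339), so the groups did not overlap, on 4 to 19 interactions per library. Its DMSO mean was 64.3. A second KRT19 bin, 260 to 270 kb downstream (chr17:41258308-41268307, over KRTAP9-6, a hair keratin-associated protein gene), was also lower (-0.73 ± 0.21 SE, adjusted p = 0.765). Higher values were measured in the other 3. These lay 390 to 400 kb downstream of DCBLD2 in an intron of CLDND1 (0.71 ± 0.20), 380 to 390 kb downstream of MTAP outside genes (0.68 ± 0.21) and 40 to 50 kb upstream of PHLDA1 over an exon of NAP1L1 (0.56 ± 0.18), each with an adjusted p of 0.765. All 5 kept their sign without dTAG replicate 3, at -1.29, -0.68, 0.61, 0.44 and 0.42.

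Signal summed over bands of distance was higher in dTAG+I-BET close to the promoters, but most of that difference lay in dTAG replicate 3. From 10 to 50 kb, the mean over 20 promoters was higher by 0.26 (20.1%), and 20 of 20 promoters had a positive difference. Relative to the dTAG mean, libraries dTAG 1, 2 and 3 lay at 0.22, 0.18 and -0.40, and dTAG+I-BET replicates 1, 2 and 3 at 0.25, 0.27 and 0.28. The groups did not overlap, and the two-sided exact permutation p was 0.1, the smallest that 3 against 3 libraries allow. The difference was 0.07 without dTAG replicate 3. The DMSO libraries were at 0.18, 0.10 and -0.02 on the same scale.

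The difference became smaller with distance. It was 0.18 from 50 to 100 kb (exact permutation p = 0.3), 0.09 from 100 to 250 kb (p = 1) and 0.03 from 250 to 500 kb (p = 1). Without dTAG replicate 3 it was 0.01, -0.03 and -0.03, so that beyond 100 kb the sign turned. The value nearest the promoter was the highest with and without that library. limma called 0 of 80 bands (0%), and edgeR 0, with 1 band at an unadjusted p under 0.05 (1.25%). The groups did not overlap in 21 bands (26.2%), 20 of them higher. Without dTAG replicate 3, limma called 24 bands (30%), 15 higher (18.8%) and 9 lower (11.2%), with the spread of the dTAG group then resting on 2 libraries. From 10 to 50 kb these were 9 higher and 0 lower, and from 250 to 500 kb 1 higher and 4 lower.

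**Figure D1:**
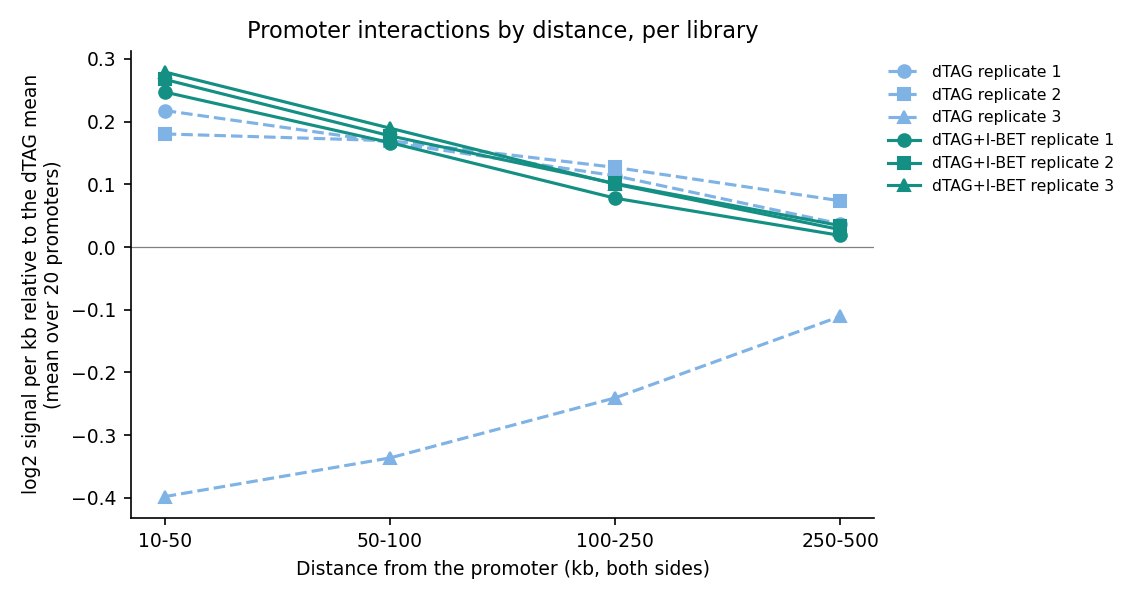
Mean log2 signal per kb over 20 promoters in 4 bands of distance (x axis, kb), relative to the mean of the 3 dTAG libraries (y axis), with 1 line per library (dashed, dTAG; solid, dTAG+I-BET). dTAG replicate 3 lies below the other 5 libraries in every band, from -0.40 at 10 to 50 kb to -0.11 at 250 to 500 kb.

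The largest differences from 10 to 50 kb were at MYC, PHLDA1 and TRIB1. MYC, which encodes a transcription factor of cell growth, had 849, 811 and 491 per kb in the dTAG libraries and 929, 951 and 902 in the dTAG+I-BET libraries (0.41 ± 0.20 SE, limma adjusted p = 0.637; 0.16 without dTAG replicate 3, adjusted p = 0.00141). PHLDA1, which encodes a pleckstrin homology-like protein, had 1179, 1129 and 833 against 1374, 1315 and 1327 (0.37 ± 0.14, adjusted p = 0.637; 0.21 without dTAG replicate 3, adjusted p = 5.47e-05). TRIB1 had 1558, 1596 and 1094 against 1788, 1830 and 1727 (0.35 ± 0.15, adjusted p = 0.637; 0.18 without dTAG replicate 3, adjusted p = 0.000634). In all 3 the lowest dTAG+I-BET library was above the highest dTAG library. The adjusted p-values without dTAG replicate 3 compare 2 with 3 libraries, after a library was left out for its values in these same data. limma there gave an SE of 0.034 at each of the 3 promoters, moderated over all bands. An exact permutation of 2 against 3 libraries cannot go below 0.2.

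HMGA2, which encodes an architectural chromatin protein, had 1688, 1609 and 1148 per kb from 10 to 50 kb against 1786, 1797 and 1856 (0.31 ± 0.15, adjusted p = 0.637; 0.14 without dTAG replicate 3, adjusted p = 0.00506). ITPRID2 had 1624, 1534 and 969 against 1648, 1739 and 1746 (0.35 ± 0.19, adjusted p = 0.637; 0.12, adjusted p = 0.0190). Their groups did not overlap either, though replicate 1 of both groups lay close together at ITPRID2. At MTAP the groups overlapped, with 1186, 1251 and 754 against 1243, 1239 and 1181 (0.23 ± 0.19, adjusted p = 0.687), and the difference was 0.00 without dTAG replicate 3. The smallest differences were at HS3ST1 (0.17), DCBLD2 (0.17) and ERRFI1 (0.18), whose values without that library were -0.03, 0.00 and 0.02. At these 3 promoters, dTAG replicates 1 and 2 were as high as the dTAG+I-BET libraries: 1427 and 1362 against 1351, 1346 and 1388 per kb at HS3ST1, 1995 and 1902 against 1906, 1923 and 2002 at DCBLD2, and 1739 and 1717 against 1732, 1707 and 1806 at ERRFI1.

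In the cohesin-lost windows (each site widened by 5 kb on both sides, merged for each promoter), I-BET changed no promoter at an adjusted p under 0.05. limma called 0 of 19 promoters (0%), with 1 at an unadjusted p under 0.05 (5.26%), and edgeR called 2 (10.5%), DCBLD2 higher and HMGA2 lower. edgeR here compared the share that the windows held of all interactions from 10 to 500 kb of the promoter, not signal per kb. By limma, 12 promoters had a positive and 7 a negative difference. The mean difference over promoters was 0.06 (4.47%; two-sided exact permutation p = 0.9) and -0.04 without dTAG replicate 3, when 13 of 19 promoters were lower. The libraries dTAG 1, 2 and 3 lay at 0.13, 0.08 and -0.21 relative to their mean, and the dTAG+I-BET libraries at 0.04, 0.05 and 0.09, within the range of the dTAG group. The DMSO libraries were at 0.24, 0.18 and 0.06. At a single promoter, the 95% interval reached 0.29 to either side of the difference. It rests on an SE of 0.14 that limma pooled over the 19 promoters, so it is not the spread of 1 promoter.

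**Figure D2:**
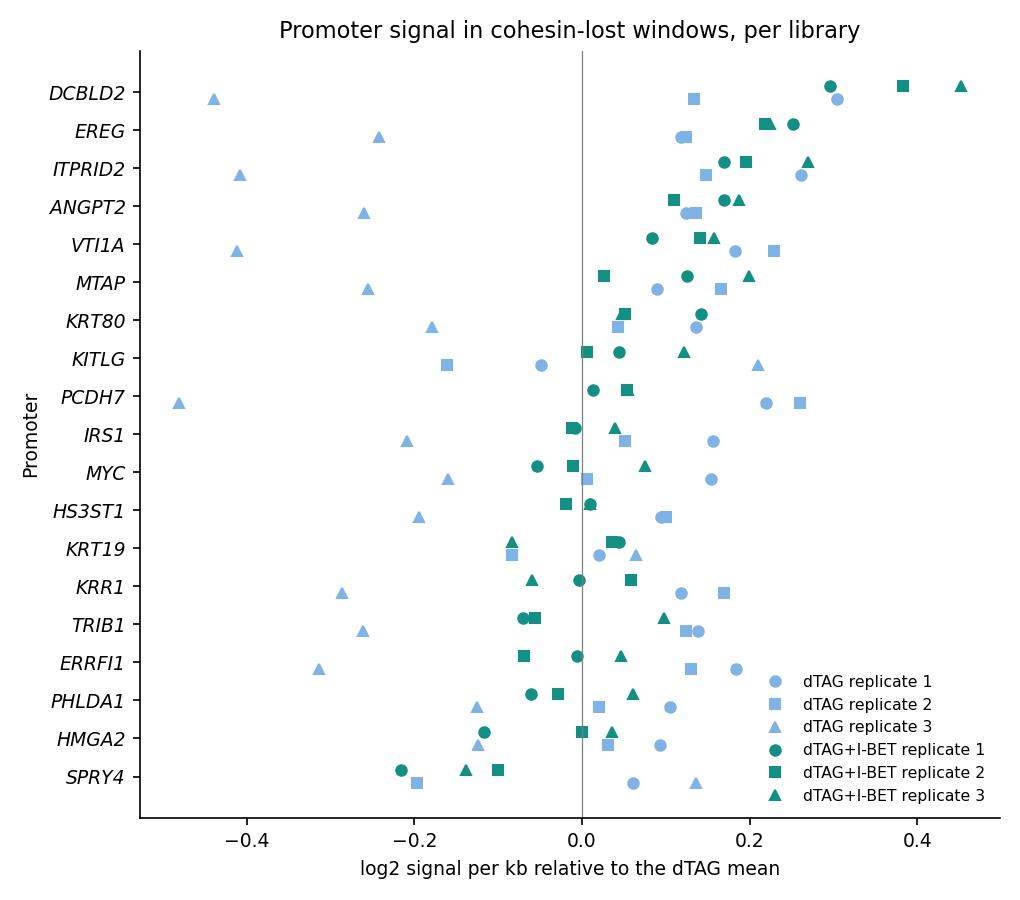
log2 signal per kb in the cohesin-lost windows of 19 promoters (y axis, ordered by the difference), relative to the mean of the 3 dTAG libraries (x axis), with 1 point per library (light blue, dTAG; green, dTAG+I-BET; shape, replicate). dTAG replicate 3 is the lowest of the 6 libraries at 16 promoters, and only at EREG do all dTAG+I-BET points lie above all dTAG points.

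Grouped by role, the ligand genes ANGPT2, EREG and KITLG were higher in 3 of 3, with a mean difference of 0.15 (0.10 without dTAG replicate 3). Of all 19 promoters, 12 were higher. With libraries rescaled to equal totals, EREG was at 0.12, ANGPT2 at -0.0052 and KITLG at -0.055. By edgeR these genes were at 0.079, -0.024 and -0.082. The signalling adaptors and inhibitors were lower in 3 of 4 (mean -0.04; 4 of 4 and -0.12 without dTAG replicate 3). MYC and HMGA2 were at 0.00 and -0.03, and at -0.08 and -0.09 without that library. The epithelial and cell-surface genes had a mean of 0.12 (-0.01 without dTAG replicate 3), and the remaining 6 genes 0.07 (-0.07). No gene of any group passed the limma test with all 6 libraries.

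DCBLD2, EREG and ITPRID2 had the largest positive differences. The windows of DCBLD2, 2 sites 60.9 and 79.6 kb upstream, held 2386, 2119 and 1425 per kb in the dTAG libraries and 2371, 2518 and 2641 in the dTAG+I-BET libraries (0.38 ± 0.14 SE, 95% interval 0.09 to 0.66, limma adjusted p = 0.211; edgeR 0.17, adjusted p = 0.0370). The groups overlapped, since dTAG replicate 1 lay above dTAG+I-BET replicate 1, and the difference was 0.16 without dTAG replicate 3 (adjusted p = 0.110). Without dTAG replicate 1 it passed the test, at an adjusted p of 0.0281.

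The 9 sites of EREG, all downstream, held 1007, 1011 and 784 per kb against 1104, 1078 and 1083 (0.23 ± 0.14, interval -0.06 to 0.52, adjusted p = 0.934), with no overlap and a DMSO mean of 810.4. EREG kept a difference of 0.11 without dTAG replicate 3 (adjusted p = 0.110). ITPRID2 had 1569, 1450 and 986 against 1473, 1500 and 1579 (0.21 ± 0.14, adjusted p = 0.934) and 0.01 without that library. There dTAG replicate 1 lay within the range of the dTAG+I-BET group and dTAG replicate 2 just below it.

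SPRY4 had the lowest value, -0.15 ± 0.14 (adjusted p = 0.999), in a single site 319 kb upstream with 82 to 139 interactions per library. Its signal was 336, 281 and 354 per kb in the dTAG libraries and 277, 301 and 293 in the dTAG+I-BET libraries. Here dTAG replicate 3 was the highest and not the lowest library, and the difference was -0.08 without it. HMGA2 had 865, 828 and 744 against 747, 810.2 and 831 (-0.03, adjusted p = 0.999; -0.09 without dTAG replicate 3; edgeR -0.14, adjusted p = 0.0370), beside a DMSO mean of 959. PHLDA1 had 877, 826 and 747 against 781, 799 and 849.7 (-0.01, adjusted p = 0.999; -0.07 without dTAG replicate 3).

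At MTAP the windows held 668, 705 and 526 per kb against 685, 639 and 721 (0.12 ± 0.14, interval -0.17 to 0.41, adjusted p = 0.999), and the difference was -0.01 without dTAG replicate 3. The DMSO libraries held 949, 973 and 668. At MYC they held 378, 341 and 304 against 327, 337 and 358 (0.00 ± 0.14, interval -0.28 to 0.29, adjusted p = 0.999), beside 465, 411 and 416 in DMSO. At both genes the dTAG and dTAG+I-BET libraries overlapped. PCDH7 was the gene called without dTAG replicate 3 (-0.20, adjusted p = 0.0287), from 790.5, 813 and 486 per kb against 685, 704 and 705, with a difference of 0.04 when all libraries were used.

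The ratio of signal in cohesin-lost windows to other sequence of the same promoter and library was slightly lower in dTAG+I-BET. This ratio does not depend on the scaling of the library, and it can fall without less signal in the windows. Over all other sequence from 10 to 500 kb, the mean difference in log2 ratio was -0.08 (-5.34%; exact permutation p = 0.2), with 16 of 19 promoters lower, and was -0.05 without dTAG replicate 3, again with 16 of 19 lower. The libraries dTAG 1, 2 and 3 lay at 0.00, -0.06 and 0.06 and the dTAG+I-BET libraries at -0.09, -0.10 and -0.05, so the groups overlapped. limma called 0 of 19 promoters (0%) with and without dTAG replicate 3, with 5 at an unadjusted p under 0.05 (26.3%). The groups did not overlap at 6 promoters, all lower (31.6%).

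Over windows at the same distance on the opposite side of each promoter (mirrored windows), the difference was -0.08 as well (-5.30%; exact permutation p = 0.1, the smallest possible), with 15 of 19 promoters lower. The libraries dTAG 1, 2 and 3 lay at 0.04, -0.05 and 0.00 and the dTAG+I-BET libraries at -0.10, -0.09 and -0.05, without overlap between the groups. The groups nearly touched, with dTAG replicate 2 at -0.046 and dTAG+I-BET replicate 3 at -0.051. With the median over promoters the difference was -0.085 (exact permutation p = 0.3). The DMSO libraries were at 0.25, 0.21 and 0.14. Here dTAG replicate 3 did not stand apart: without it the difference was again -0.08 (14 of 19 lower). Leaving out any other library gave -0.10 to -0.06. Adjusted over the 8 means over promoters that were tested, the p was 0.4. limma called 0 of 19 single promoters (0%), with 2 at an unadjusted p under 0.05 (10.5%), and the groups did not overlap at 3, all lower (15.8%).

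The 3 promoters without overlap in the mirrored comparison were HMGA2, IRS1 and ANGPT2. HMGA2, over mirrored windows, had log2 ratios of 0.89, 0.90 and 0.96 in the dTAG libraries and 0.61, 0.81 and 0.79 in the dTAG+I-BET libraries (-0.18 ± 0.07, limma adjusted p = 0.271; -0.16 without dTAG replicate 3), with a DMSO mean of 1.51. IRS1 had 1.15, 1.11 and 0.97 against 0.90, 0.96 and 0.85 (-0.17 ± 0.07, adjusted p = 0.271; -0.22 without dTAG replicate 3). ANGPT2 had 0.49, 0.56 and 0.62 against 0.47, 0.42 and 0.43 (-0.12 ± 0.06, adjusted p = 0.271; -0.09 without dTAG replicate 3). Mean signal per kb in the windows of ANGPT2 was 1549 in dTAG and 1712 in dTAG+I-BET, and in its mirrored windows 1055 and 1261. At HMGA2 the windows held 812 and 796 and the mirrored windows 430 and 476. At IRS1 the windows held 533 and 524 and the mirrored windows 251 and 279. The lowest values over mirrored windows were at KITLG (-0.21 ± 0.14) and KRR1 (-0.18 ± 0.08), where the groups overlapped. Without dTAG replicate 3 these were -0.06 and -0.16, and the lowest were PCDH7 (-0.23) and IRS1. All 4 signalling adaptors and inhibitors and both nuclear regulators were lower in both ratios, with and without dTAG replicate 3. Most promoters were: 16 of 19 over other sequence and 15 of 19 over mirrored windows (16 and 14 without dTAG replicate 3). Of the 3 ligand genes, 2 were lower in both ratios. Without dTAG replicate 3, 1 was lower over other sequence and 2 over mirrored windows. DCBLD2 (0.20 over other sequence and 0.21 over mirrored windows) and EREG (0.09 and 0.17) had the highest values in both ratios with all libraries, and MTAP was at -0.01 and 0.07. When dTAG replicate 3 was left out, DCBLD2 was at 0.12 and 0.07, EREG at 0.14 and 0.06 and MTAP at -0.02 and 0.10, so that MTAP was then the highest over mirrored windows.

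**Figure D3:**
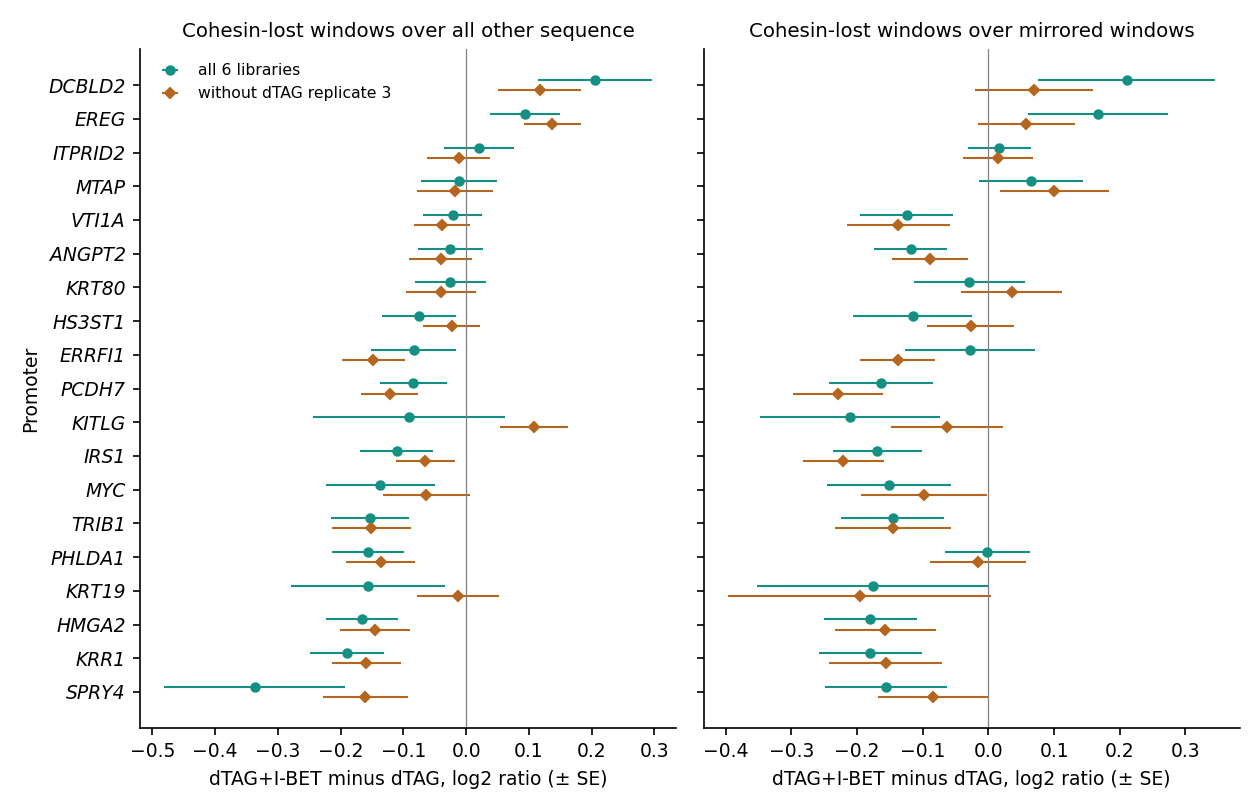
Difference (dTAG+I-BET minus dTAG) of the log2 ratio of signal in cohesin-lost windows over all other sequence from 10 to 500 kb (left) and over mirrored windows (right), for 19 promoters, with all 6 libraries (circles) and without dTAG replicate 3 (diamonds); bars are SE from limma. In the left panel 16 of 19 circles lie below 0, and in the right panel 15 of 19.

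Of single cohesin-lost sites, limma called 0 of 153 (0%) and edgeR 0, with 8 at an unadjusted p under 0.05 (5.23%). The groups did not overlap at 20 (13.1%), 13 higher and 7 lower. The 5 sites with the lowest p were all higher in dTAG+I-BET, and at all 5 the groups did not overlap. Their values are a description.

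MTAP site 1, 191 kb upstream of MTAP and outside genes, had the lowest p. It held 257, 409 and 276 per kb in the dTAG libraries and 635, 451 and 560.1 in the dTAG+I-BET libraries, a difference of 0.82 ± 0.19 (SE; interval 0.42 to 1.22; limma adjusted p = 0.0586). The adjusted p ran from 0.00203 to 0.969 over all settings. The DMSO libraries held 789, 730.1 and 411, so that the dTAG+I-BET libraries lay between the lowest and the highest DMSO library. Without dTAG replicate 3 the difference was 0.74 (adjusted p = 0.0726), and with libraries rescaled to equal totals it was 0.72 (adjusted p = 0.0143). The site rests on 41 to 106 interactions per library. MTAP site 2, at 186 kb, shares most of its widened window with site 1 and held 376, 490.1 and 303 against 629, 504 and 613 (0.60 ± 0.18, adjusted p = 0.202), beside 927, 793 and 541 in DMSO.

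EREG site 1, 91.2 kb downstream of EREG, held 748, 871 and 645 per kb in the dTAG libraries and 1120, 964 and 1231 in the dTAG+I-BET libraries (0.55 ± 0.17, adjusted p = 0.202; 0.45 without dTAG replicate 3). Its DMSO libraries held 745, 865 and 769, below all 3 dTAG+I-BET libraries. The site at 81.6 kb lay in an exon of AREG, the gene of another EGF receptor ligand (amphiregulin), and its window partly overlaps that of EREG site 1. It held 1057, 1142 and 780.0 against 1353, 1315 and 1361 (0.45 ± 0.17, adjusted p = 0.566; 0.29 without dTAG replicate 3), beside 975, 1009 and 851 in DMSO. ITPRID2 site 1, 57.6 kb downstream of ITPRID2, held 879.9, 809 and 696 against 948, 1035 and 1053 (0.35 ± 0.16, adjusted p = 0.794; 0.26 without dTAG replicate 3), beside 731, 699 and 571 in DMSO. Both EREG sites and both MTAP sites passed the test after rescaling (4 sites, all higher), and none of the 5 passed without dTAG replicate 3.

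**Figure D4:**
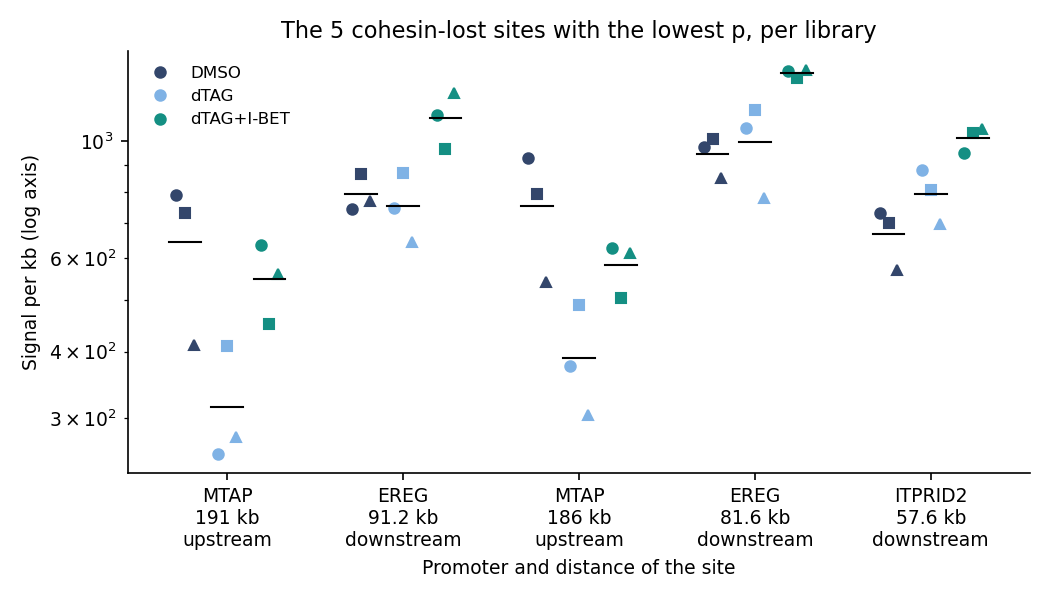
Signal per kb (y axis, log scale) at the 5 cohesin-lost sites with the lowest p, with 1 point per library (dark blue, DMSO; light blue, dTAG; green, dTAG+I-BET; shape, replicate) and the mean of each group as a bar. At each site the 3 dTAG+I-BET points lie above the 3 dTAG points, and at the sites of MTAP they overlap the DMSO points.

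Across the 153 pairs, 83 were higher and 70 lower (median 0.04), and without dTAG replicate 3 there were 48 higher and 105 lower (median -0.09). The median was 0.11 for 39 pairs within 100 kb, 0.05 for 57 pairs from 100 to 250 kb and -0.04 for 57 pairs beyond, in the order that the bands of distance showed. These medians became -0.03, -0.09 and -0.13 without dTAG replicate 3. Pairs whose site held an AP-1 match (78) and pairs without one (75) had medians of 0.05 and 0.04, or -0.08 and -0.10 without dTAG replicate 3. The sites around 1 promoter share its libraries and are not replicates.

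The bin profiles of MTAP, HMGA2, MYC and ITPRID2 show where along the locus the differences lay. With all libraries, the median over 98 bins was 0.12 at MTAP, 0.04 at HMGA2, 0.09 at MYC and 0.10 at ITPRID2, with 67, 55, 61 and 65 bins higher. Without dTAG replicate 3 the medians were 0.01, 0.02, -0.02 and 0.00, and 50, 51, 46 and 50 bins were higher. The sums from 10 to 50 kb of MYC, HMGA2 and ITPRID2, given above, were positive without that library as well. At HMGA2 values ranged from -0.97 to 0.59 (-0.81 to 1.01 without dTAG replicate 3), and at MTAP from -0.44 to 0.68 (-0.48 to 0.67).

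**Figure D5:**
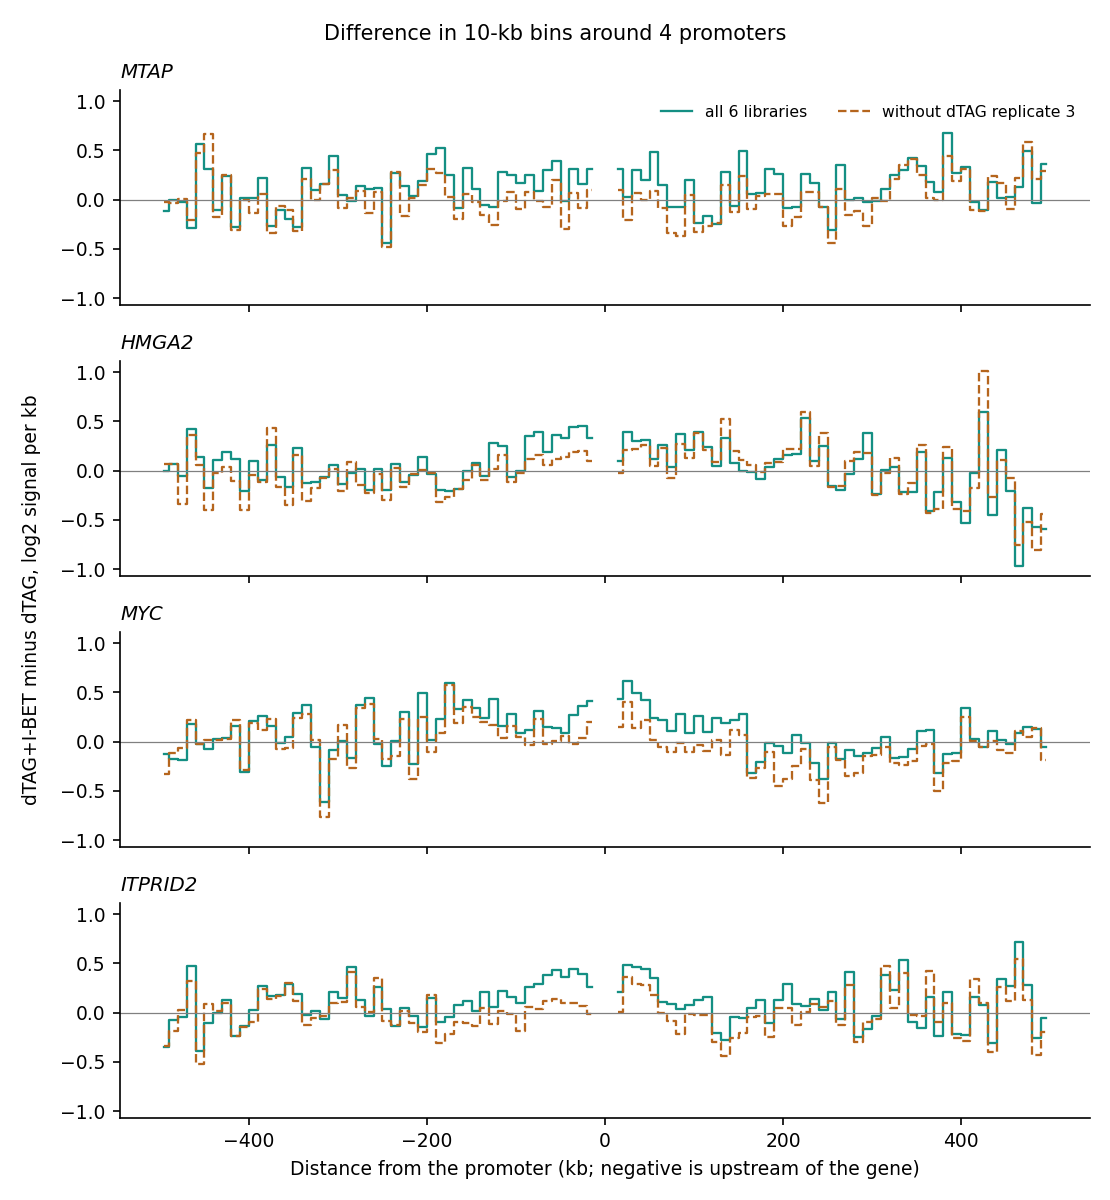
Difference in log2 signal per kb (y axis, dTAG+I-BET minus dTAG) in 10-kb bins up to 500 kb on both sides of 4 promoters (x axis, kb, negative upstream), with all 6 libraries (solid) and without dTAG replicate 3 (dashed). The solid line lies above the dashed line near the promoters, and no bin passed the test.

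Within transcribed sequence, 10 viewpoint genes longer than 30 kb were measured from 10 kb downstream of the start to the gene end or 500 kb. All 10 had a positive difference (median 0.18), and limma called 0 of 10 (0%), with 0 at an unadjusted p under 0.05. In each band of distance up to 250 kb, all 20 promoters were positive too. Centring by distance removes the mean difference over the 20 promoters at each distance. Centred, ITPRID2 was at 0.067, KITLG at 0.037, ANGPT2 at 0.018 and HMGA2 at 0.0045. The other genes were negative, from -0.12 at HS3ST1 to -0.060 at PCDH7, and limma called 0 of 10. The limma SE of 0.19 was pooled over the 10 genes and is not the spread of 1 gene. edgeR compared the share of the interactions from 10 to 500 kb, not signal per kb, and did not adjust for distance. It called 2, both higher. These were ITPRID2 (1766, 1639 and 1188 per kb against 1830, 1911 and 2003; limma 0.34 ± 0.19, adjusted p = 0.491; edgeR 0.15, adjusted p = 0.0413) and HMGA2 (937, 902 and 783 against 996, 1009 and 1043; limma 0.22 ± 0.19, adjusted p = 0.600; edgeR 0.11, adjusted p = 0.0413). The groups did not overlap at 4 genes (40%), these and the ligand genes ANGPT2 and KITLG. Without dTAG replicate 3, limma called 6 of 10 (60%), the same 4 higher (0.13 to 0.17) and PCDH7 (-0.18) and VTI1A (-0.14) lower. The 10 genes then divided into 5 higher and 5 lower. That fit compared 2 with 3 libraries, after a library was left out for its values in these same data. It gave every gene the same pooled SE of 0.039.

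The balance of signal upstream over downstream of the promoter, which does not depend on scaling, also gave 0 calls in 20 promoters (0%), with 3 at an unadjusted p under 0.05 (15%). Differences ran from -0.11 at KRR1 to 0.15 at VTI1A, and 10 promoters were higher and 10 lower. VTI1A, which encodes a SNARE protein, had more of its signal upstream, with log2 ratios of 0.75, 0.68 and 0.70 in the dTAG libraries and 0.87, 0.88 and 0.84 in the dTAG+I-BET libraries (0.15 ± 0.04, interval 0.07 to 0.24, adjusted p = 0.0901; 0.15 and adjusted p = 0.00542 without dTAG replicate 3). KRR1 had 0.33, 0.41 and 0.42 against 0.30, 0.27 and 0.28 (-0.11 ± 0.04, adjusted p = 0.227; -0.09 without dTAG replicate 3). HS3ST1 had 0.66, 0.61 and 0.62 against 0.53, 0.54 and 0.53 (-0.09 ± 0.04, adjusted p = 0.227; -0.10 and adjusted p = 0.0371 without dTAG replicate 3). The groups did not overlap at these 3 promoters, nor at TRIB1 and DDIT4 (5 of 20, 25%). The fit without dTAG replicate 3 compared 2 with 3 libraries. It called 7 promoters (35%), 4 higher (VTI1A, PCDH7, IRS1, MYC) and 3 lower (ERRFI1, HMGA2, HS3ST1).

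In the 5 bins of each promoter that were strongest for their distance in DMSO cells, a choice that used no library of the comparison, limma called 0 of 20 promoters (0%), with 1 at an unadjusted p under 0.05 (5%), and the groups overlapped at every promoter. The mean difference was 0.06 (exact permutation p = 0.9) and -0.05 without dTAG replicate 3. SPRY4 had 923, 826 and 642 per kb against 919, 999 and 1045 (0.32 ± 0.14, adjusted p = 0.725), and TRIB1 had 1186, 1130 and 986 against 949, 983 and 1048 (-0.14 ± 0.11, adjusted p = 0.725). There were 6 promoters (30%) called without dTAG replicate 3. That fit compared 2 with 3 libraries and gave every promoter the same pooled SE of 0.061. SPRY4 was higher (0.17, adjusted p = 0.0307), and TRIB1 (-0.22), ERRFI1 (-0.22), IRS1 (-0.18), PCDH7 (-0.16) and HS3ST1 (-0.16) were lower. MYC (-0.04 and -0.01 without dTAG replicate 3) and HMGA2 (-0.06 and -0.08) passed in neither fit.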

How the data were processed

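Capture-C libraries of 3 DMSO, 3 dTAG and 3 dTAG+I-BET samples were deposited as 1 table per viewpoint. The authors digested chromatin with DpnII, counted interactions per DpnII fragment with CapCruncher on hg38 (demultiplexing with bcl2fastq 2.17 in the submitters' processing notes), and scaled them. Each deposited value is a signal, the interactions counted between viewpoint and fragment after the authors had multiplied them by a factor per column. Values on the viewpoint chromosome sum to 925205 to 967001 in each library and viewpoint, a scaling that sets gains in one region against losses in another. All 102057804 values (100%, tolerance 0.01) were whole multiples of their column's smallest value, which gave the interaction counts used for edgeR and DESeq2. A viewpoint had 10698 to 60241 interactions on its chromosome in a library (median 27383), a number that covers counting error only.

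Viewpoints were placed at the GENCODE 44 start. Fragments were assigned by midpoint. Bins of 10 kb needed a mean of 2 per kb, which removed none. limma 3.58.1 (R 4.3.3) was fitted to log2(signal per kb + 1) of the 6 libraries, with a call at a Benjamini-Hochberg adjusted p under 0.05 over all regions of a kind. Means over promoters were tested by two-sided exact permutation of libraries. edgeR 4.0.16 and DESeq2 1.42.0 were alternatives. For bands, cohesin-lost windows, single sites and gene bodies, the edgeR offset was the library's interactions from 10 to 500 kb of that promoter. In these regions edgeR thus compared the share of those interactions, while limma compared signal per kb, and the 2 differences are not the same measure. Other steps used Python 3.11.15. The scripts were tested on simulated data. Positions of cohesin-lost sites and their direction came from the study's list of changed SMC1A peaks, and no other value of it was used.

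The viewpoints, gene groups and regions were chosen with earlier results of these data known. Named are the loci the study plotted for I-BET (MTAP, HMGA2, MYC, ITPRID2), the 3 lowest and 3 highest differences in cohesin-lost windows and from 10 to 50 kb, and, with no calls, the 5 bins and 5 sites with the lowest p. Other loci in the text, such as PCDH7, VTI1A, KRR1 and IRS1, were chosen after their values were seen. The study calls the replicates biologically independent, while the columns number them with letters that no source explains. The p-values measure the spread between these libraries, which limma moderates towards a spread shared by the regions of a kind. With all 6 libraries, limma gave the same SE to every promoter in cohesin-lost windows (0.14) and to every gene body (0.19). Without dTAG replicate 3 it did so for gene bodies (0.039) and DMSO-strong bins (0.061). Same-numbered libraries of the groups did not deviate together (correlations of -0.04, -0.04 and -0.06), so the replicate number was used as a block only as an alternative. Other alternatives were rescaling to equal totals from 10 kb to 1 Mb, centring by distance, leaving out each library, all 9 libraries in the fit, pseudocounts of 0.5 and 5, bins of 5 and 25 kb, other bin filters, windows of 2.5 and 10 kb, sites beyond 25 kb, 3 and 10 strong bins, and the median over promoters.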

Additional observations from a re-analysis of the deposited data

How the results depend on the processing

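Leaving out dTAG replicate 3 was the choice that moved most values. When each library was left out in turn, the mean difference ran from -0.027 to 0.16 at 100 to 250 kb, from -0.029 to 0.064 at 250 to 500 kb, from -0.041 to 0.13 in cohesin-lost windows and from -0.051 to 0.12 in DMSO-strong bins, and each negative end was the value without dTAG replicate 3. With libraries rescaled to equal totals these 4 means were -0.0053, -0.071, -0.037 and -0.042. Centring by distance gave -0.045 in cohesin-lost windows and -0.018 in DMSO-strong bins, and the median over promoters of the former was -0.048. The cause was not tested. Means from 10 to 50 kb and from 50 to 100 kb and both ratios kept their direction under every alternative run for them. Rescaling lowered the first from 0.26 to 0.17 and the second from 0.18 to 0.079. Centring by distance was not run for the means of bands, because it removes the mean difference over promoters at each distance. It therefore cannot show whether these means hold.

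Calls by limma ran over the same omissions from 0 to 24 bands, 0 to 1 promoter in cohesin-lost windows, 0 to 2 single sites, 0 to 7 promoters in upstream over downstream signal, 0 to 6 gene bodies and 0 to 6 promoters in DMSO-strong bins. edgeR called 2 promoters in cohesin-lost windows and 2 gene bodies. Rescaling gave 4 single sites and 1 promoter in DMSO-strong bins, and centring gave 1 single site. With the replicate number as a block, although the numbers did not pair the libraries, 1 single site was called (MTAP site 1, adjusted p = 0.00946 by limma), and no call changed in any other kind of region.

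Values near 0 changed sign at single promoters. In cohesin-lost windows, leaving out each library gave -0.089 to 0.019 at HMGA2, -0.073 to 0.043 at PHLDA1, -0.011 to 0.20 at MTAP and -0.076 to 0.081 at MYC. PHLDA1 was at 0.017 with windows of 10 kb. MTAP was at -0.0037 when centred and -0.011 by edgeR. MYC was at -0.051 when rescaled, -0.061 when centred, -0.11 by edgeR and -0.021 with windows of 2.5 kb. From 10 to 50 kb, centring gave -0.094 at DCBLD2, -0.085 at ERRFI1, -0.10 at HS3ST1 and -0.034 at MTAP. Centring removes the mean difference over promoters at each distance, so negative values at some promoters follow from the method. Leaving out each library gave -0.0036 to 0.28 at DCBLD2, which was at -0.022 by edgeR, and -0.034 to 0.29 at HS3ST1.

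For summary values, 173 settings kept direction and calls, 14 moved a count and 11 reversed a mean. For named regions, 372 kept both, 16 newly passed the threshold and 22 reversed. With 3 libraries a group the exact test cannot go below 0.1, and without dTAG replicate 3 not below 0.2.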
